A study of Mus musculus with 295 samples.

Results

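Pancreas digestive-enzyme transcripts were measured in mouse adipose RNA, and the 15 arrays highest in Cpb1 (carboxypeptidase B1, a pancreatic protease that trims basic residues from dietary peptides) were set against the arrays lowest in it. The members were chosen by measured values. Of 295 arrays, the 247 with a log2 ratio of Gpx5 (an epididymal glutathione peroxidase) of -1.66 or less were kept, and they were ranked by Cpb1. The 15 highest formed the Cpb1-high arrays and the 123 below the median formed the Cpb1-low arrays, which together are 138 of 295 arrays. A further 109 kept arrays lay between them. The 47 arrays above the Gpx5 limit are called Gpx5-high, and 1 array had no Gpx5 value.

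The study profiled adipose tissue of F2 mice, 1 array per mouse, in a cross set up to map the genetics of gene expression. Parents were C57BL/6J and C3H/HeJ, and each parental strain carried the ApoE null background, so every mouse on either side of the comparison was ApoE null. Females and males were on a Western-type diet rich in fat between weeks 8 and 24 of life. The labels give no sex for single mice, no adipose depot and no dissection or scan batch. Cy3 marked the RNA of the mouse and Cy5 a pool to which every mouse had given an equal portion. Values are read as log2 ratios of the mouse to that pool, so 0 is the level of the pool. This scale and direction were inferred, as described under processing. Arrays were not repeated, so the spread between mice contains technical error.

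As background, the exocrine pancreas consists of acinar cells that make digestive enzymes and their inactive precursors in very large amounts and release them through ducts. The basic helix-loop-helix factor Ptf1a, in the PTF1 complex, binds the E-box CACCTG upstream of many acinar enzyme genes. Islets of Langerhans lie within the same organ and make hormones such as insulin, glucagon (Gcg) and amylin (Iapp). In the mouse the pancreas is a diffuse organ that lies among abdominal fat and lymph nodes.

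Cpb1 formed a short upper tail. It ran from -0.74 through a median of 0.80 to 5.45 in the Cpb1-high arrays, and from -4.23 through -2.60 to -2.20 in the Cpb1-low arrays. The lowest of the 15 lay at -0.74 and the next array outside at -0.81, so the rule placed its limit within a continuous range. At the lower limit the neighbours were -2.20 on both sides. The largest step was higher up, between mouse 322 at 4.07 and mouse 279 at 1.95. Mice 200, 272, 271 and 259 were higher still, at 5.45, 4.84, 4.30 and 4.22. Gpx5 left a wide gap at its own limit, since the highest kept array was at -3.01 and the lowest array left out was at 0.24.

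The 15 arrays differed in how far pancreas transcripts other than Cpb1 were raised, and not all of them had such transcripts above the low range. Ctrl, the chymotrypsin-like protease, fell into 2 separate ranges within the Cpb1-high arrays. It lay between -0.27 and 2.52 in mice 200, 272, 271, 259, 322, 279, 89, 355 and 71, and between -4.53 and -3.16 in mice 87, 83, 302, 77, 224 and 165. In the Cpb1-low arrays it ran from -5.23 through -4.74 to -4.00. The upper 9 stood clear of every low array. Of the lower 6, mice 83, 302, 224 and 165, at -3.85 to -3.16, also lay above every low array, and mice 87 and 77 lay inside the low range. This split was noticed in the values and carries no test. Cpb1 itself ran from -0.74 to 0.44 in the lower 6, and mouse 87, with Cpb1 at 0.44, had none of the 25 other measured exocrine genes above every low array. Mice 83, 302, 77, 224 and 165 had 12, 9, 5, 4 and 8 of 25. The 5 highest arrays had 19 or 20 of 25. Mice 279, 89 and 71 had 17, 14 and 11 of 25 and mouse 355 had 13 of 24. The count of genes thus did not part the arrays where Ctrl did, with mouse 83 above mouse 71. The share of all probes above every low array is not given for single arrays. These counts therefore have no background and do not by themselves measure pancreas content.

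**Figure D1:**
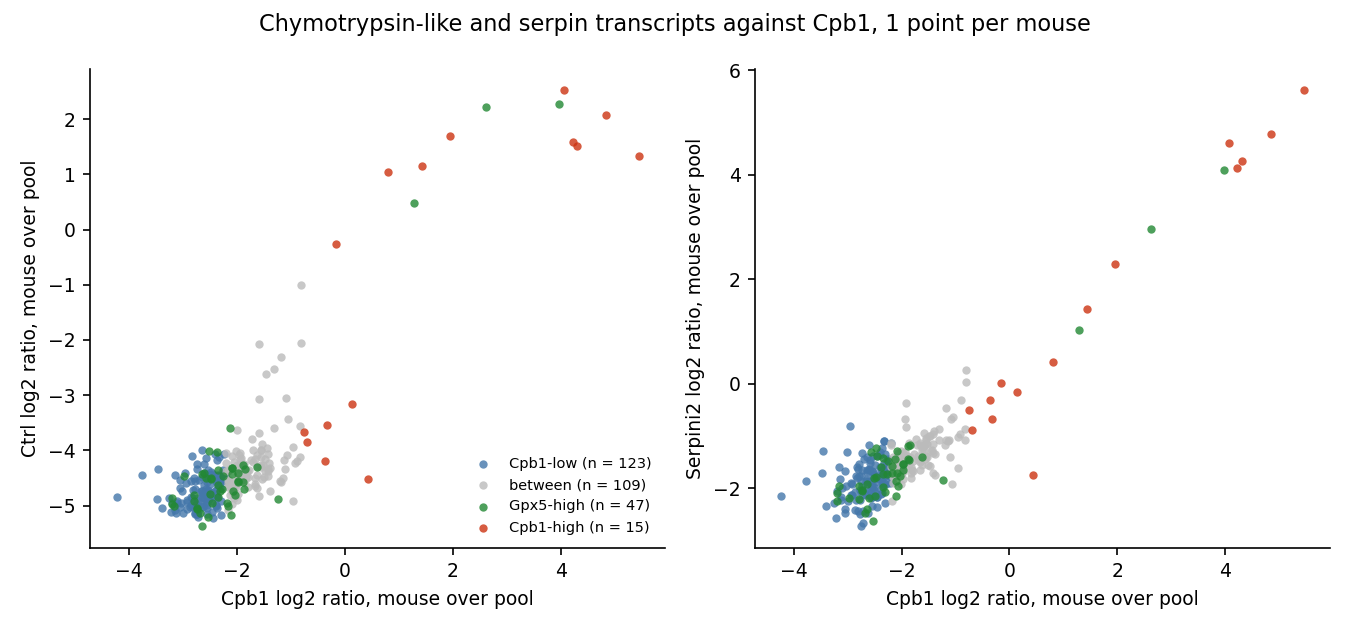
Log2 ratios of Ctrl (left) and Serpini2 (right) against Cpb1, 1 point per mouse, coloured by set of arrays. Ctrl levels off between 1.05 and 2.52 in the 8 highest Cpb1-high arrays while Cpb1 goes on from 0.80 to 5.45, and 6 Cpb1-high arrays stay at -3.16 or less.

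Levels did not scale together in every gene. Ctrl in the 8 arrays with the most of it lay between 1.05 and 2.52, with mouse 200, the highest in Cpb1, at 1.33 and mouse 322 at 2.52. Serpini2, a pancreas serpin, instead followed Cpb1 up to 5.62 in mouse 200. The mean linear ratio over all 295 arrays, which a pool of equal portions should bring near 1, was 0.92 for Serpini2, 0.87 for Cckar, 0.78 for Cpb1 and 0.17 for Ctrl. The cause of the low value for Ctrl was not tested. The 5 highest Cpb1 arrays held 55.3% of the summed linear Cpb1 ratio of all 295. Less RNA per cell and fewer cells of a type cannot be told apart in such bulk samples.

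The sequences upstream of 5 exocrine genes are shown because Ptf1a rose with Cpb1 and its E-box can be looked for in them. Each is the 250 bases before the RefSeq start (GRCm38.p6), written 5′ to 3′ on the strand of the gene, with CACCTG or its reverse complement CAGGTG in capitals. Cpb1 is at chr3:20275734-20275983, Ctrl at chr8:105933863-105934112, Serpini2 at chr3:75270079-75270328 and Cel at chr2:28563404-28563653, all on the minus strand, and Reg1 is at chr6:78425733-78425982 on the plus strand.
Cpb1: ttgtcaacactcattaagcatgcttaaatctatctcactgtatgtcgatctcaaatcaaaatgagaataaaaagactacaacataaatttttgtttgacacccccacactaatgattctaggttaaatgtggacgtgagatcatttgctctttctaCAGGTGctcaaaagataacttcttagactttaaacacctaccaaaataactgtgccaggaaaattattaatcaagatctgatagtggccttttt
Ctrl: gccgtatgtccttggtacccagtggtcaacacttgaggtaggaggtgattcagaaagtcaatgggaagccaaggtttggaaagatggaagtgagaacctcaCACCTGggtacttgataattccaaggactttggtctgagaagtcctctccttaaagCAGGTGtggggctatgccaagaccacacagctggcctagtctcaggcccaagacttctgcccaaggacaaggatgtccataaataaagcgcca
Serpini2: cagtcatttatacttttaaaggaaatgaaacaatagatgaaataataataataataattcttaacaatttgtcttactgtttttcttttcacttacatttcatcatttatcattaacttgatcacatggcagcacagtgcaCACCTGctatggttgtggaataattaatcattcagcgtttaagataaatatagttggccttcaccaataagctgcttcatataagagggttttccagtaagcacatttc
Cel: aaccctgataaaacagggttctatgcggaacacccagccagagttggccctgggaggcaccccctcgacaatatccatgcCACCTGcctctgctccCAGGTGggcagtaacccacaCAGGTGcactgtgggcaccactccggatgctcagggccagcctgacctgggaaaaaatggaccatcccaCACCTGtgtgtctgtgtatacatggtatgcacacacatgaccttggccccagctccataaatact
Reg1: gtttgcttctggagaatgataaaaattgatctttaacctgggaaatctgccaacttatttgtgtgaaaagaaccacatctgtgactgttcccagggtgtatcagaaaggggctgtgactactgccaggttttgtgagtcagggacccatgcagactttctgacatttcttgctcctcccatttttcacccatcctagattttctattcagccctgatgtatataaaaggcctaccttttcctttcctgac

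Cpb1 held 1 E-box, whose first base stood at -94 from the start. Ctrl held E-boxes at -149 and -93, Serpini2 held 1 at -109, and Cel held 4, at -170, -154, -134 and -65. Reg1 held none, although its transcript rose with theirs. Of 48 genes on the exocrine list, 38 had a window in the table and 24 of these held the E-box on either strand in at least 1 window. The same letters occurred in 17.2% of all 32851 windows. That share counts windows while the list was counted by gene, and some genes had more than 1 window, so the figures are not like for like. A match describes these letters only and says nothing of binding.

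Across all probes the comparison was broad but mostly shallow outside the pancreas genes. Of 23005 probes tested with limma and Benjamini-Hochberg adjustment, 25.1% were higher and 25.6% lower in the Cpb1-high arrays at an adjusted p under 0.05, with a median difference of -0.03. A call alone therefore says little here. Size set most measured exocrine genes apart from most probes, but genes outside the exocrine list were at least 2-fold higher too. Only 0.313% of probes, 72 in all, were called at least 2-fold higher. Because arrays were chosen by Cpb1, a call describes a probe that varies with Cpb1.

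The exocrine list held 48 genes, of which 26 had a probe with a usable name, and Cpb1 was set aside. Of the other 25, 22 were called higher, 19 of them at least 2-fold, and none lower. Their median difference was 2.38. With only the 5 highest arrays as the high side, 21 of 25 were called higher, where 13.2% of all probes were higher and 9.66% lower, and their median difference was 4.84. At least 5 Cpb1-high arrays lay above every low array for 19 of the 25 genes, against 7.41% of all probes, and at least 9 did so for 13 genes, against 0.248%.

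Among the proteases, Prss2 (anionic trypsinogen) ran from -6.03 through -0.13 to 4.63 in the 14 Cpb1-high arrays that had a value, and from -6.64 through -6.20 to -4.85 in the low arrays. Of the 14, 10 lay above every low array. The difference was 5.26 ± 0.38 (SE; limma adjusted p = 1.97e-24). Ctrl differed by 4.03 ± 0.25 (adjusted p = 8.51e-30), which is 16.4-fold on the linear scale if the deposited values are log10 ratios, and 13 of 15 arrays lay above every low array. Cela2a, a pancreatic elastase, differed by 3.73 ± 0.27, with 9 of 15 above the low range. Within the upper arrays Cela2a did not follow Cpb1. It reached 4.33 in mouse 259, but was -1.83 in mouse 279 and 1.83 in mouse 71, where Cpb1 was 1.95 and -0.16. Prss1, a trypsinogen named as a marker of these arrays, had 3 probes, which differed by 2.20, 4.85 and 4.14.

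The lipid-digesting enzymes showed the same arrays. Cel, the bile salt-activated lipase, ran from -5.10 through 0.89 to 5.03 in the Cpb1-high arrays and from -5.85 through -5.26 to -4.28 in the low arrays. It lay above every low array in 12 of 15. Its difference was 5.04 ± 0.33 (limma adjusted p = 9.26e-28). Pnliprp1 and Pnliprp2, pancreatic lipase-related proteins, differed by 4.88 ± 0.40 and 3.79 ± 0.27. One low array reached -0.38 for Pnliprp1, so only 8 of 15 lay above every low array there, and 11 of 15 did for Pnliprp2. Pla2g1b, the pancreatic phospholipase A2, differed by 2.22 ± 0.18, from a low-array median of -1.05 to 3.98 in mouse 272. Amy1 (amylase) differed by 2.49 ± 0.28 and was highest in mouse 200, at 5.11, where Cpb1 and Cel were also highest.

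Inhibitors and secreted partners differed among themselves. Serpini2 ran from -1.74 through 0.42 to 5.62 in the Cpb1-high arrays and from -2.72 through -1.86 to -0.81 in the low arrays, with 13 of 15 above. The difference was 3.41 ± 0.24 (limma adjusted p = 3.16e-26). Spink1, the trypsin inhibitor, differed by 2.38 ± 0.56 (adjusted p = 0.000234) but overlapped fully: no Cpb1-high array exceeded the highest low array, at 3.38. In the 5 highest arrays it lay between 0.84 and 1.98, and in mice 279, 89 and 355 between -3.39 and -1.63, although Ctrl was above 1 there. Tff2, a trefoil peptide, differed by 2.78 ± 0.20. Gp2, the zymogen granule membrane glycoprotein, had 2 probes that disagreed, with differences of 4.83 ± 0.30 and 0.18 ± 0.05.

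The regenerating (Reg) family, secreted lectins of acinar cells, split by mouse. Reg1 differed by 4.62 ± 0.33 and lay between 2.27 and 3.48 in the 5 highest arrays. Reg2 differed by 2.66 ± 0.22, and here mouse 259 stood alone at 5.41 while the other 4 of the highest 5 lay between -0.44 and 1.44. Mouse 259 was also the highest of the 15 in Reg3b, at 4.44 against 1.86 in mouse 200, in Reg3a, at 3.03, and in Reg3g, at 1.89. Reg3d did not single it out, at 2.73 against 2.84 in mouse 200. The family differences for Reg3a, Reg3b, Reg3d and Reg3g were 0.99, 1.31, 1.15 and 0.42. A limma interaction of the comparison with the Eif2s3y class described below called 0.0478% of all probes, and Reg2, Reg3b and 1 Prss1 probe among them, where the Eif2s3y-high side of the 15 is only mice 259 and 279. Trypsinogens, amylases and Reg genes are families of similar sequence, and how far their probes separate the copies was not tested.

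Cckar, the cholecystokinin receptor that triggers acinar secretion, differed by 3.19 ± 0.37 (limma adjusted p = 2.08e-12). It was between 3.93 and 5.08 in the 5 highest arrays, yet only 5 of 15 lay above every low array, because mouse 268, a Cpb1-low array, was at 3.07. Aqp12, an acinar water channel, differed by 1.40 ± 0.11. Ptf1a ran from -0.65 through 0.65 to 4.40 in the Cpb1-high arrays and from -1.72 through -0.79 to -0.07 in the low arrays, with 13 of 15 above. Its difference was 2.32 ± 0.17 (limma adjusted p = 1.90e-23). The other transcription factors of the list did not pass the test: Bhlha15 differed by 0.02 ± 0.03 (adjusted p = 0.56), Rbpjl by -0.11 ± 0.06 (adjusted p = 0.12) and Nr5a2 by -0.01 ± 0.22 (adjusted p = 0.98). Nr5a2 was not raised even in the 5 highest arrays, where it ranged from -0.42 to 0.16.

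**Figure D2:**
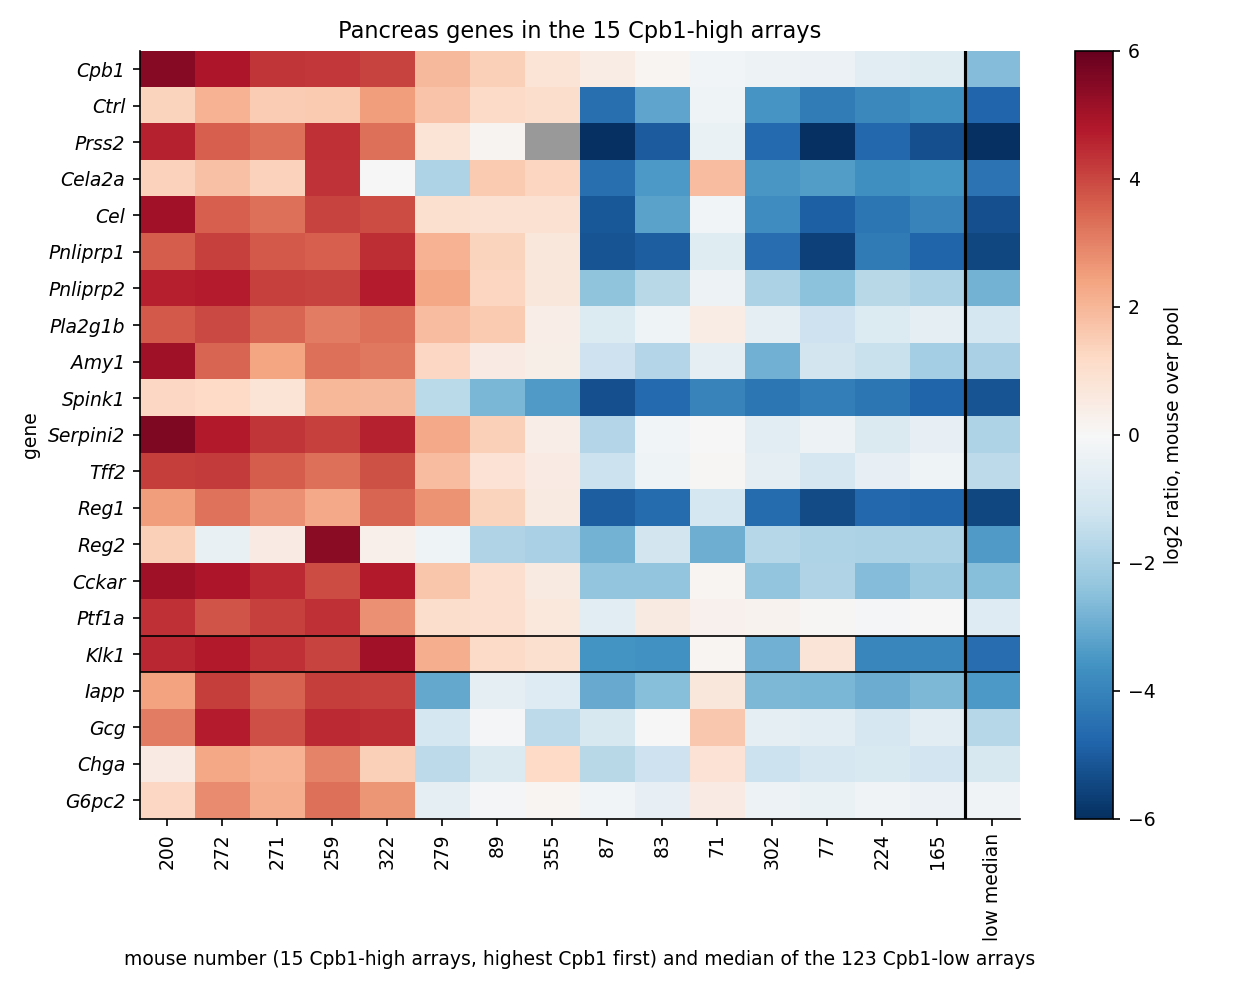
Log2 ratios of exocrine genes (rows Cpb1 to Ptf1a), Klk1 and 4 islet genes in each of the 15 Cpb1-high arrays, highest Cpb1 first, with the median of the 123 low arrays at the right; grey is a missing value. The 5 leftmost arrays are high in both groups of genes, mice 279, 89 and 355 mainly in the exocrine genes, and 6 of the 7 rightmost have Ctrl at -3.16 or less, against 1.05 or more in the 8 leftmost.

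Part of the list could be read only in the kept arrays. A block of 105 probes had values on at least 90% of the 247 kept arrays and on none of the other 48. It held 12 exocrine probes of 11 genes, among them Prss2, Cel, Pnliprp1, Reg1, Reg2 and Amy1, and 28 of the 72 probes that were at least 2-fold higher. The reason those values are missing was not tested.

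Islet hormone transcripts were raised in part of the Cpb1-high arrays. Iapp ran from -3.07 through -0.78 to 4.16 in the Cpb1-high arrays and from -4.43 through -3.42 to -0.21 in the low arrays, and 6 of 15 lay above every low array. The difference was 3.24 ± 0.29 (limma adjusted p = 5.43e-18). Gcg differed by 2.68 ± 0.25 (adjusted p = 3.77e-17), also with 6 of 15 above. In the 5 highest arrays Iapp lay between 2.42 and 4.16 and Gcg between 3.05 and 4.69. Mouse 279, with Ctrl at 1.70, had Iapp at -3.07, inside the low range, and Gcg at -1.04. Mice 89 and 355 had Iapp at -0.59 and -0.78, while mouse 71, lower in Ctrl, had 0.67.

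Of 28 islet genes 20 were measured, and 9 were called higher and 4 lower, against 25.1% and 25.6% of all probes, with a median difference of 0.10. Beside Iapp and Gcg the higher ones were the granule proteins Chga (1.19), Chgb (1.13), Scg2 (0.47) and Scg3 (0.40), the prohormone convertase Pcsk1 (0.63), the islet phosphatase G6pc2 (0.85) and Sst (0.58). The 4 lower were Ucn3 (-0.39), Nkx6-1 (-0.24), Kcnj11 (-0.22) and Mafa (-0.13), none of which was lower with only the 5 highest arrays as the high side, where 12 were higher and 0 lower, against 13.2% and 9.66% of all probes. Chga overlapped fully, since a low array reached 4.07.

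The proportion of islet to enzyme transcripts varied between arrays, as a description of single arrays with no test. Mouse 250, between the sets with Cpb1 at -0.81, had Gcg at 5.17 and Iapp at 4.42, both above all 15 Cpb1-high arrays, with Ctrl at -2.06 and Cel at -2.69, and 12 of 25 exocrine genes above every low array. Mouse 75 had Iapp at 3.45 with Ctrl at -3.63, itself above every low array, and 4 of 25 exocrine genes above. Mouse 114 had Ctrl at -1.01 and Cel at -0.20 with Iapp at -3.99, and 7 of 25 above. For these single arrays, too, no share of all probes stands beside the counts.

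**Figure D3:**
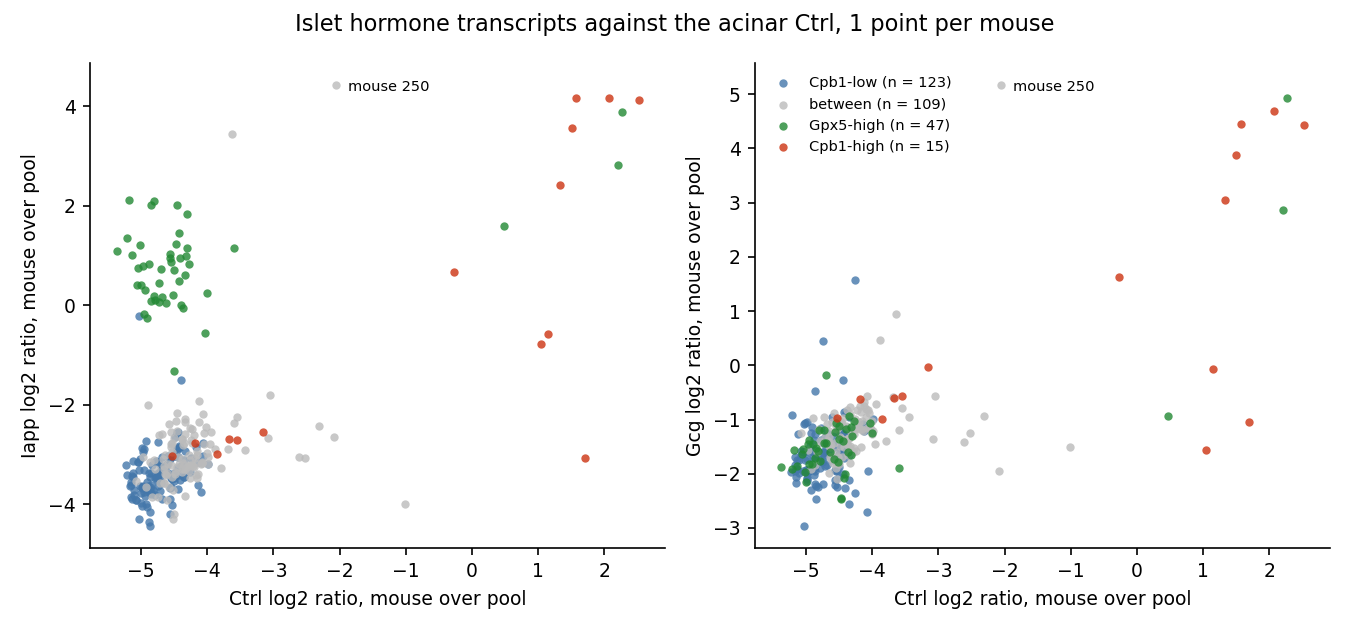
Log2 ratios of Iapp (left) and Gcg (right) against Ctrl, 1 point per mouse. The 5 highest Cpb1 arrays lie at the upper right, mouse 250 lies high in both hormones with Ctrl at -2.06, and the Gpx5-high arrays form a band of raised Iapp with a median of 0.79 that is not seen for Gcg.

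Several genes outside the list rose with the enzymes. Klk1 (tissue kallikrein) ran from -3.92 through 0.94 to 5.03 in the Cpb1-high arrays and from -6.22 through -4.55 to 2.35 in the low arrays. Its difference was 4.67 ± 0.54 (limma adjusted p = 2.08e-12), with 5 of 15 above every low array. Klk1b5, of the same family, differed by 3.03 ± 0.31. Klk1 was also high, together with Cckar, in arrays with Ctrl inside the low range: mouse 84 had Klk1 at 3.72 and Cckar at 4.07 with Ctrl at -4.53, and mouse 268 had 2.35 and 3.07 with Ctrl at -5.15. Hsd17b13, a lipid droplet protein of liver, differed by 2.20 ± 0.32 and lay between 3.47 and 4.40 in the 5 highest arrays. Cuzd1, a zymogen granule protein, differed by 2.31 ± 0.45, but only mouse 322, at 1.35, lay above every low array. Prtn3, a serine protease of granulocytes, differed by 1.52 ± 0.14 with 7 of 15 above.

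Of the 72 probes at least 2-fold higher, 46 carried 1 gene name, for 44 genes, and 20 of these were on the exocrine list. Some of the remaining names were picked after their values were seen. They included Amy2 (4.65), Dmbt1 (4.41), a mucin-like secreted protein, and 1810049H19Rik (5.15), with 7, 8 and 10 arrays above every low array. The forkhead factor Foxa2 differed by 1.06 and lay between 1.79 and 2.56 in the 5 highest arrays, but low arrays reached 3.31. Further names with differences near that of Foxa2 were Defb19 (1.28), F2 (1.27), Cntn1 (1.11), Gdf3 (1.03) and Csta1 (1.02). Defb19 and Gdf3 had 8 and 3 arrays above every low array, and F2, Cntn1 and Csta1 had none. With the Eif2s3y class as a covariate Cntn1 fell to 0.28 (limma adjusted p = 0.19). None of these further names had a slope on Cpb1 that passed the test in the Gpx5-high arrays. The other 26 probes had no gene name in the annotation used.

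Lower genes differed by less and overlapped with the low arrays. The lowest were Eif2s3y, a Y-linked translation factor (-2.16 ± 0.89, limma adjusted p = 0.0346), and Sult1e1, the estrogen sulfotransferase (-1.81 ± 0.80), both without a Cpb1-high array below every low array. Eif2s3y separated all 295 arrays into 153 high and 142 low. Only 2 of 15 Cpb1-high arrays (13.3%), mice 259 and 279, were Eif2s3y-high, against 65 of 123 low arrays (52.8%, Fisher's exact test, two-sided, p = 0.00496). These shares hold for the kept arrays only. The rule had left out 47 Gpx5-high arrays, all Eif2s3y-high, among them mice 348, 147 and 7 with Cpb1 at 3.98, 2.62 and 1.28. With the Eif2s3y class as a covariate Eif2s3y, Sult1e1 and Pitx1 changed sign, to 0.48, 0.53 and -0.14. The class was cut from Eif2s3y itself, so the loss of the lower Eif2s3y value follows from the adjustment. With the same covariate 22 of 25 exocrine genes were called higher, against 24.2% of all probes. Gna13 (-0.96 ± 0.18), Hoxc4 (-0.96 ± 0.16), Atf7 (-0.84 ± 0.16) and Cd2ap (-0.83 ± 0.15) stayed lower with it, at -0.77, -0.85, -0.78 and -0.73. They did not follow the enzymes within the 15 arrays. Atf7, a transcription factor, lay below every low array in 6 arrays, mouse 83 (-2.47), mouse 77 (-1.38), mouse 322 (-1.30), mouse 272 (-1.29), mouse 302 (-1.18) and mouse 165 (-1.14), of which 4 were among the 6 arrays below the gap in Ctrl. It was inside the low range in the other 9, among them mouse 259 (0.22) and mouse 279 (0.09), which lay above that gap.

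Mouse number is the only ordering the labels give. Its mean was 203.7 ± 100.5 (SD, n = 15) in the Cpb1-high and 199.9 ± 106.4 (SD, n = 123) in the Cpb1-low arrays. The means did not differ in a two-sided permutation test (p = 0.899). That test compares means only, so it cannot show whether the numbers cluster. Numbers 71, 77, 83, 87 and 89 and numbers 259, 271, 272 and 279 stood close together. Whether neighbouring numbers share a dissection or a day is not in the labels.

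Markers of other tissues differed by less than the enzymes. Their counts are read against the 25.1% of all probes called higher and 25.6% called lower, and a share near or under these is not a result about a list. The list of duct and other epithelial genes had 3 of 15 higher and 0 lower, with a median of 0.19. These were Muc1 (1.21 ± 0.25), Cldn4 (0.50 ± 0.20) and Pdx1 (0.51 ± 0.08), a transcription factor that is not confined to ducts. Krt19 (0.19), Krt8 (0.23), Krt18 (0.46) and Cftr (-0.49) did not pass the test. Muc1 lay between 2.48 and 2.73 in the 5 highest arrays, and low arrays reached 3.69. Genes of protein folding in the endoplasmic reticulum, abundant in secretory cells, had 1 of 16 higher (Ssr4, 0.25) and 5 lower, led by Sec61a1 and Canx at -0.42 each. With the 5 highest arrays alone 2 of 16 were higher and 0 lower, against 13.2% and 9.66% of all probes. Intestine and stomach genes had 4 of 11 higher, among them Vil1 (0.50) and Tff3 (0.49).

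The B cell list had 0 of 9 genes called in either direction, and the T cell list had 2 of 10 higher, Zap70 (0.44) and Cd3e (0.29), and 1 lower. The mean of the B cell genes ran from -1.03 to 1.02 in the Cpb1-high arrays and from -1.38 to 3.13 in the low arrays. Macrophage genes had 0 of 15 higher and 1 lower, Cybb (-0.71 ± 0.25). Adipocyte genes had 1 of 13 higher, Gpd1 (0.17), and 2 lower, Cav1 (-0.53) and Cebpa (-0.23), and Lep (leptin) did not pass the test (0.24 ± 0.13, limma adjusted p = 0.106). Fatty acid synthesis genes had 1 of 12 higher, Acly (0.37 ± 0.13). Skeletal muscle genes had 4 of 14 higher, 1 lower and a median of 0.49, and mouse 87, with no other exocrine gene above every low array, had the muscle troponin Tnnt3 at 4.52 and the muscle calcium pump Atp2a1 at 4.63.

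With Gpx5 set aside, since the rule used it, 6 of the other 12 epididymis genes were called higher and 0 lower, with a median of 0.31. Of all probes, 25.1% were called higher and 25.6% lower. The mean of the list, Gpx5 included, ran from -4.74 through -4.17 to -3.20 in the Cpb1-high arrays and from -5.28 through -4.62 to -1.29 in the low arrays, and Adam28 (0.93 ± 0.12) and Cst11 (0.75 ± 0.10) led. Their mean had a median of -3.80 in the 6 Cpb1-high arrays below the gap in Ctrl and of -4.42 in the 9 above it. Their part in the Cpb1 values of those 6 arrays was not tested. With the epididymis mean, Gpx5 included, as a covariate 22 of 25 exocrine genes were called higher, as were 5759 of all 23005 probes. The rule had bounded Gpx5 in these arrays, so this fit does not test that part.

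**Figure D4:**
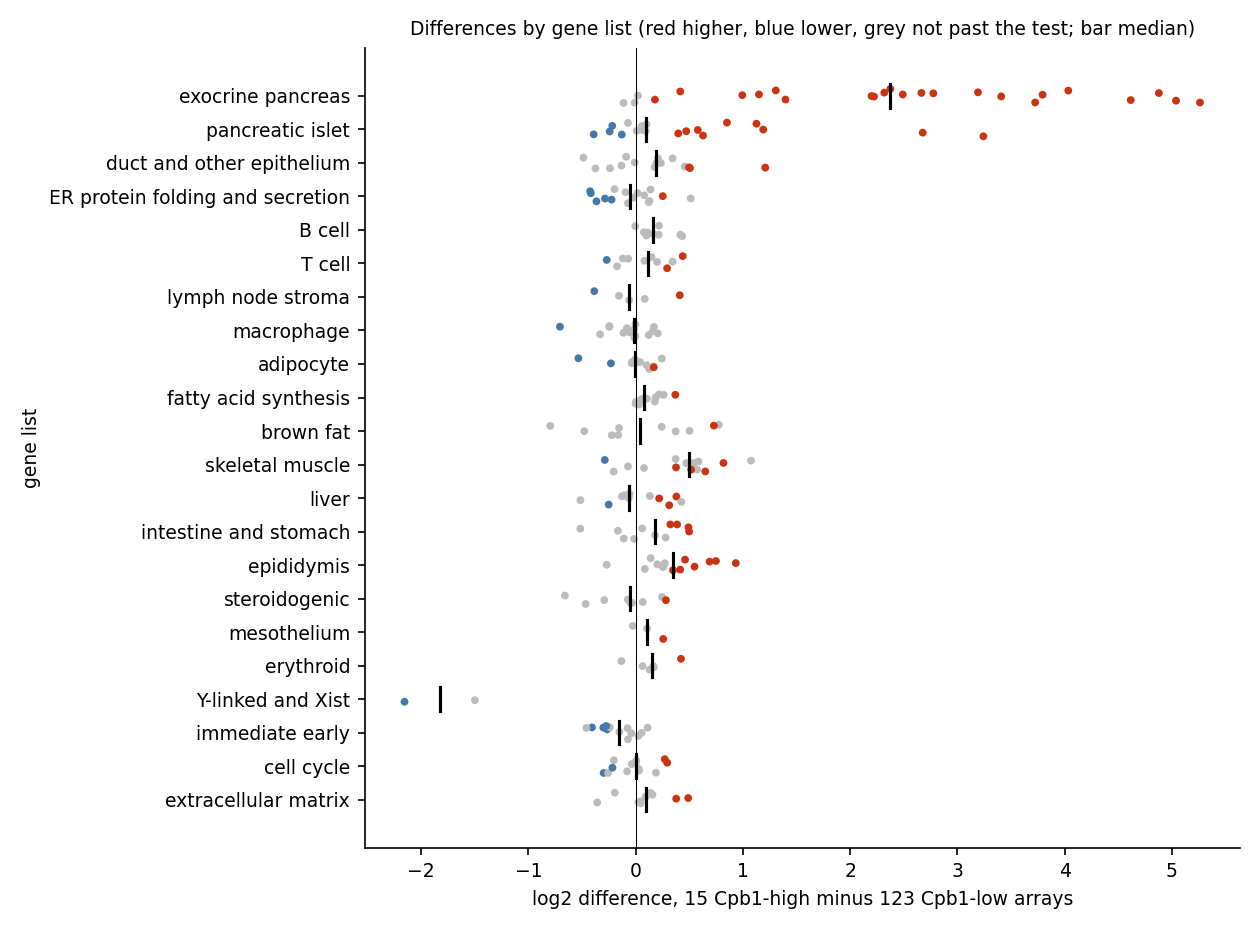
Log2 difference between the 15 Cpb1-high and 123 Cpb1-low arrays for every measured gene of the 22 lists, with a bar at each list's median; red and blue genes passed an adjusted p of 0.05 and grey genes did not. The exocrine median is 2.38 and the islet list holds 2 genes above 2, while the medians of the other lists run from -0.15 (immediate early genes) to 0.49 (skeletal muscle), apart from -1.83 for the 2 Y-linked genes.

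The same genes were then tested in arrays that entered neither side. In the 109 arrays between the sets each probe was regressed on Cpb1, which there spanned only -2.20 to -0.81. Of 25 exocrine genes 15 had a positive slope past an adjusted p of 0.05 (limma, Benjamini-Hochberg), against 11.6% of all probes, and 0 had a negative one, against 7.83%. Slopes were 0.80 ± 0.14 log2 per log2 unit of Cpb1 for Ctrl (adjusted p = 0.000121), 0.94 ± 0.17 for Cel, 0.62 ± 0.08 for Serpini2 (adjusted p = 1.70e-07) and 0.46 ± 0.08 for Ptf1a. Amy1, Spink1, Cckar, Cela2a, Reg3b, Reg3d and Reg3g did not pass there, and neither did Bhlha15, Rbpjl and Nr5a2. Without mouse 114, the highest of these arrays in Ctrl, 15 remained the count. B cell genes also rose with Cpb1 in these arrays, 5 of 9 with 0 falling, and T cell genes did so for 4 of 10, whereas Fasn fell (-0.57 ± 0.16). Their part in the exocrine slopes was not tested.

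In the 47 Gpx5-high arrays, all of them Eif2s3y-high, 12 of 16 measured exocrine genes rose with Cpb1 (limma, Benjamini-Hochberg), against 0.328% of all probes, and 0 fell, against 0.0219%. The slope of Ctrl was 1.15 ± 0.06 (adjusted p = 1.37e-20), of Cckar 0.93 ± 0.11, of Serpini2 0.87 ± 0.04 and of Ptf1a 0.62 ± 0.04. The 4 that did not pass were Gp2 (through the probe that also moved little between the sets), Bhlha15, Rbpjl and Nr5a2. Of the 75 probes called higher here, 66 were also called higher between the sets, against 25.1% of all probes. Of these, 27 were at least 2-fold higher, against 0.313% of all probes. The result rests on 3 arrays, mice 348, 147 and 7, with Cpb1 at 3.98, 2.62 and 1.28, where the next array was at -1.23. Without these 3, limma called 0 exocrine genes and 0 probes at an adjusted p under 0.05, and 7 of 16 exocrine genes and 19.2% of all probes at an unadjusted p under 0.05.

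The 3 arrays repeated features of the Cpb1-high set. Ctrl was 2.27, 2.21 and 0.48 in mice 348, 147 and 7, against -3.60 at most in the other Gpx5-high arrays. Gcg was 4.92 in mouse 348 and 2.87 in mouse 147, but -0.93 in mouse 7, inside the range of the others. Reg3b reached 5.30 and 5.18 in mice 348 and 147, above the 4.44 of mouse 259. Klk1 had a slope of 1.27 ± 0.19 and Gcg of 0.80 ± 0.06. Iapp had a slope of 0.44 ± 0.08, but 44 of the 47 Gpx5-high arrays lay above every Cpb1-low array in Iapp and most of these had Cpb1 at -1.23 or less. Cuzd1, too, had a median of 1.08 in these arrays and a slope of 0.02 ± 0.04.

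**Figure D5:**
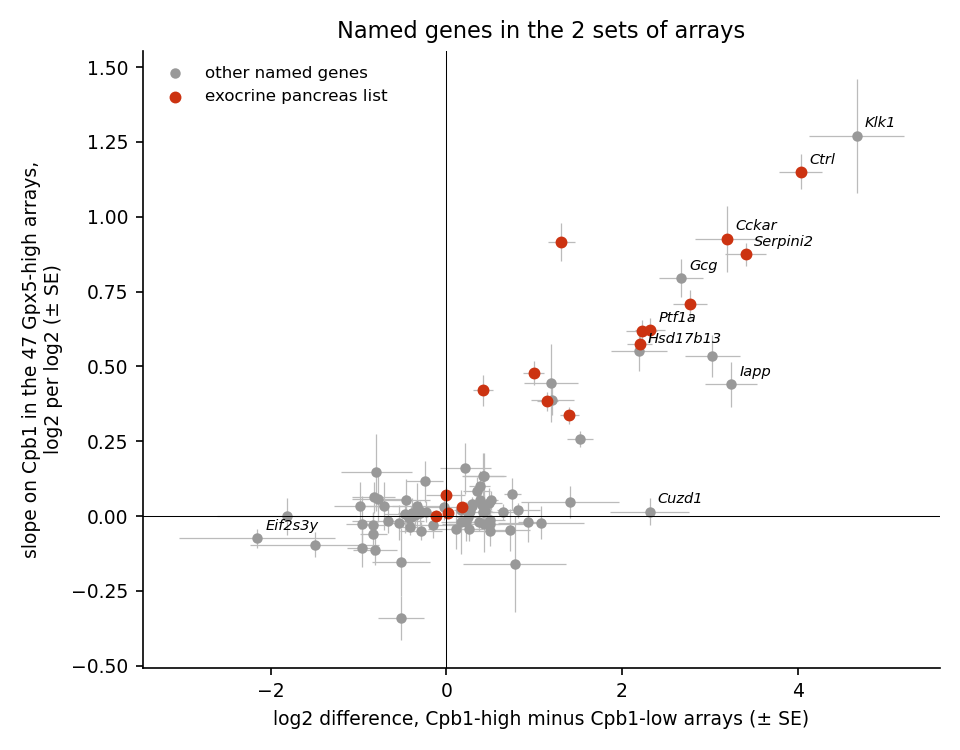
Difference between the Cpb1-high and Cpb1-low arrays (x axis, log2) against the slope on Cpb1 in the 47 Gpx5-high arrays (y axis), with SE bars, for the named genes measured in both. Exocrine genes run from the origin, where Gp2, Bhlha15, Rbpjl and Nr5a2 lie, to Ctrl at 4.03 and 1.15, and Cuzd1 stands apart at 2.31 and 0.02.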

How the data were processed

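Adipose RNA of 295 F2 mice was read on 2-colour arrays, 1 per mouse, and every mouse belongs to the 1 group the labels give. The deposited values were read as log10 ratios of mouse to pool. Background correction, normalization and the scanner software are not given in the sources used here. No source states the scale, centring or direction, which were inferred: the deposited range was -2 to 2, and array medians ran from -0.17 to 0.13 after multiplication by 3.32 to log2. Eif2s3y-high arrays had a median Eif2s3y of 1.26, where the pool predicts 0.95 for mouse over pool. Read as natural log or log2 those arrays would have 0.55 or 0.38. The same check on Gpx5 fell short, with a median of 1.35 in the Gpx5-high arrays where the pool predicts 2.65. The base is therefore inferred and not certain, and all folds rest on it. Of 43365 pairs of arrays 944 had r under -0.3, each with 1 array on either side of the Gpx5 limit, and the lowest r among kept arrays was -0.22. Such pairs cannot show which way a group of arrays or the whole series points, so the deposited direction was kept without a test.

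Of 23387 probes, 13644 had 1 symbol in the platform annotation, 48 several and 9695 none, and 12652 were updated through Entrez identifiers to RefSeq genes of GRCm38.p6. A gene is its most variable probe measured on 90% of all arrays, or of the compared arrays for genes with none. The 15 Cpb1-high and 123 Cpb1-low arrays were compared with limma 3.58.1 in R 4.3.3 (lmFit, eBayes, Benjamini-Hochberg) over 23005 probes with values on 90% of these arrays, Cpb1 excluded. Each other probe was regressed on Cpb1 in the 2 sets of arrays left out. Missing values stayed missing. The script was tested on simulated data. Fisher's exact test and 100000 permutations were run in SciPy 1.17.1 (Python 3.11.15, NumPy 2.4.6, pandas 2.3.3, matplotlib 3.10.9). Arrays have no read depth, so their number limits precision.

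The arrays, the 22 lists of 366 genes and the tests were chosen with earlier results of these data known. Named were all measured exocrine genes, the 15 genes with the largest positive and the 10 with the largest negative called differences, the 3 members of each other list with the largest absolute difference, Gpx5, Eif2s3y and Lep. Alternatives covered centring, missing values, covariates, the size of either side, ranking by Prss1 and values at the limit. The number of 1 mouse differs between its title and source name, and the title was used.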

Additional observations from a re-analysis of the deposited data

Results flagged for a closer look

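The difference between Cpb1-high and Cpb1-low arrays was itself compared between the Eif2s3y classes with an interaction term in limma, which called 11 of 23005 probes (0.0478%) at an adjusted p under 0.05. Among exocrine genes it differed for 3. For Reg2 the difference in Eif2s3y-low arrays minus that in Eif2s3y-high arrays was -3.98 ± 0.55 (adjusted p = 3.12e-07), for Reg3b -2.71 ± 0.37 (adjusted p = 3.12e-07) and for the Prss1 probe with values on all arrays -1.81 ± 0.39 (adjusted p = 0.0248). The Eif2s3y-high part of the Cpb1-high set is only mice 259 and 279. Reg2 was 5.41 and -0.28 in them, against a highest value of 1.44 in the 13 Eif2s3y-low arrays, and Reg3b was 4.44 and 1.44 against 1.86. Prss1 was 3.11 and 2.92, within the range of the 13, which reached 3.73. Class and the choice of these 2 mice cannot be told apart.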

How the results depend on the processing

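Exocrine genes called higher numbered between 19 and 22 of 25 under the alternatives that tested all 25. They numbered 22 of 24 with ranking by Prss1, which shared 12 of 15 high arrays, and 21 of 24 without probes at the limit. Among their single values 416 kept direction and side of the threshold, 1 passed it and 6 no longer did. Of the values of all named genes 1569 kept both, 35 newly passed, 140 no longer passed and 17 changed sign. Counts of probes moved under some selections of arrays: 5773 higher became 3030 with the 5 highest arrays and 141 with Eif2s3y-high arrays only, and 5880 lower became 2223, 8 and, with the 10 highest, 3409. Probes at least 2-fold higher rose from 72 to 167 with the 5 highest, an alternative chosen after seeing the data, as were the epididymis covariate and leaving out mouse 322 or 114. Leaving out the 3 Gpx5-high arrays highest in Cpb1 brought 12 exocrine genes there to 0. Centring each array on its median gave 6359 higher and 4847 lower.

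With the Eif2s3y class, cut from Eif2s3y itself, as a covariate the signs turned for Pitx1 (-0.14), Eif2s3y (0.48), Sult1e1 (0.53) and Kdm5d (0.65). In Eif2s3y-low arrays alone they turned for these (-0.33, 0.62, 0.72 and 0.84) and Col8a1 (0.042). In Eif2s3y-high arrays alone, with 2 high arrays, signs turned for Cd2ap (0.086), Sec61a1 (0.000382), Canx (0.10), Cybb (0.018), Cav1 (0.18), Acly (-0.18), Actn3 (-0.18) and Slc4a1 (-0.083). The cause was not tested. No paired analysis was possible because each mouse has 1 array and its own number. Ratios at the edge of the deposited range, as for 8 low arrays in Prss2, limit how far down a level can be read.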

Other observations

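Of the lists not described above, where 25.1% of all probes were called higher and 25.6% lower, liver genes had 1 of 12 called lower and 3 higher (among them Ttr, the transthyretin gene that islets also express, 0.38 ± 0.11), brown fat genes 1 of 10 higher (Cox8b, 0.73 ± 0.23), steroidogenic genes 1 of 9, mesothelial genes 1 of 3 (Lrrn4, 0.26 ± 0.05), erythroid genes 1 of 6 (Slc4a1, 0.42 ± 0.12) and extracellular matrix genes 2 of 11 (Postn, 0.49 ± 0.14, and Col6a2, 0.38 ± 0.12). Lymph node stroma had Madcam1 higher (0.41) and Ccl19 lower (-0.39). Immediate early genes had 0 of 13 higher and 4 lower, among them Egr1 (-0.41 ± 0.12) and Junb (-0.30 ± 0.08). Cell cycle genes had 2 of 13 higher, Bub1 and Mcm5, and 2 lower. The adjusted p-values are limma's.

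The 1 array with no Gpx5 value, mouse 94, had Cpb1 at -3.29 and Ctrl at -4.60, inside the low range of both. Mouse 312, between the sets, had Cela2a at -0.13, Prss2 at -2.21 and Chga at 1.64 with Iapp at -2.65. Pax6, an islet transcription factor, was 2.40 in mouse 250 and 2.30 in mouse 259, and at most 0.56 in the other 14 Cpb1-high arrays.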
